A study of Mus musculus with 2 samples.

Results

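Cluster 5 of the authors' cell table comprised 250 of the 7863 cells in the series, and its cells carried enteroendocrine genes. Its members were taken by that cluster number alone, 99 in the Mettl14 WT library and 151 in the Mettl14 KO library. The series profiled primary epithelial cells of the C57BL/6 mouse colon that were alive and positive for the surface protein EpCAM, sorted on a flow cytometer and prepared with the 10x Genomics 3' kit, version 2. There was 1 library per genotype, of 4210 WT and 3653 KO cells, with 60205658 and 37635762 UMIs (unique molecular identifiers, the counted RNA molecules). The METTL14 protein works with METTL3 to place N6-methyladenosine (m6A) on RNA. The series text mentions 2 weeks without saying from when, and neither the deleted exons, the Cre driver nor the number of animals behind a library is given in the sources used here. With 1 library on each side no value has a replicate check and no test was made. All intervals are 95% intervals that cover counting error only, and every difference is one between these libraries.

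Enteroendocrine cells are the hormone-secreting cells of the gut lining. They arise from crypt progenitors that switch on the transcription factor Neurog3, then Neurod1 and other regulators, and store peptides or serotonin in dense-core granules. In the colon the main kinds are enterochromaffin cells, which make serotonin through the enzyme Tph1, L cells, which secrete peptide YY (Pyy), glucagon-like peptides (Gcg) and Insl5, and a smaller number of D cells, which secrete somatostatin (Sst).

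The label was checked against the markers of the cell type. UMIs of at least 3 of the 5 genes Pyy, Chgb, Chga, Gcg and Neurod1 were found in 82 of the 99 WT cells and 87 of the 151 KO cells, and in only 1 cell outside the cluster. None of the 5 was found in 7 WT cells (7.07%) and 28 KO cells (18.5%). Levels are given as CPM, a gene's UMIs over all UMIs of the same cells, scaled to a common total. All 15 enteroendocrine markers searched were detected in both libraries, with a summed level of 29665 CPM in WT and 20047 CPM in KO, against 6.59 and 12.5 CPM in goblet-like cluster 1. The genes that marked the cluster most strongly in both libraries, such as Sst, Chgb, Gcg, Chga, Pyy, Scgn and Insl5, were used to build it and are given as a description.

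Cluster 5 took up 2.35% of WT cells (1.92% to 2.86%) and 4.13% of KO cells (3.51% to 4.83%), a ratio of 1.76. Counted by cells with at least 3 of the 5 markers, the ratio of the shares was 1.21, but that count rests on hormone and granule genes whose levels differed between the libraries. The cells held a median of 7897 UMIs in WT and 5492 in KO, 1267297 and 1140653 UMIs in all.

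A set of cells stood apart from the rest. When the 250 cells were clustered again with each gene centred within its library, 81 of them (34 WT, 47 KO) formed a sub-cluster led by the goblet genes Zg16, Muc2 and Spink4, with cycling genes such as Top2a beside them. These cells were deep, with a median of 19342 UMIs in WT and 12375 in KO, and contributed 65.9% of cluster 5 UMIs in WT and 54.6% in KO. Xist and Y-linked UMIs occurred together in 18 of the 34 WT cells (52.9%) and 16 of the 47 KO cells (34.0%), and in none of the other 169 cells, which allows a share of up to 1.78%. Xist is expressed from the inactive X chromosome of females. After every cell was thinned to 3000 UMIs the shares in the goblet-led cells were 17.6% and 10.6%, against 2.07% and 1.80% in clusters 0 to 4. Summed over 8 goblet markers, the level was 9443 CPM in WT and 11479 CPM in KO in these cells, and 1132 and 1880 CPM in the other 169. The goblet level varied widely among them, with a median of 594 CPM per cell (109 to 47767) in WT and 3890 CPM (0 to 42822) in KO. The WT median was below that of the progenitor-like cells described next (1097 CPM in WT, 2293 CPM in KO), so the name describes the leading genes of the sub-cluster and not each of its cells. Immune markers summed to 152 and 263 CPM in the goblet-led cells, against 16.2 and 32.8 CPM, with most of the immune UMIs in few cells: 116 of 127 in 3 WT cells, and 150 of 164 in 6 KO cells. No doublet caller was run and no cell was removed as a doublet. Because each result can depend on these cells, values are given for all 250 cells and for the 169 cells without the goblet-led sub-cluster (65 WT, 104 KO, with 432693 and 517961 UMIs and shares of 1.54% and 2.85% of their libraries). That exclusion was chosen after seeing the data.

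**Figure D1:**
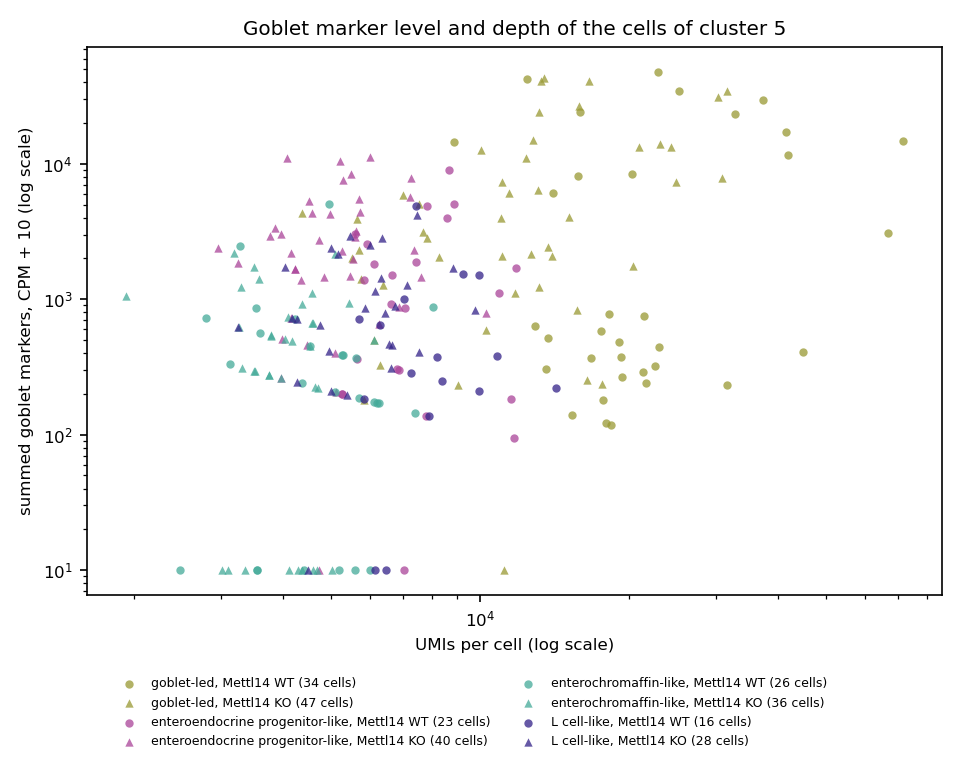
Summed CPM of 8 goblet markers (with 10 added, log scale) against UMIs per cell (log scale) for the 250 cells of cluster 5, 1 point per cell, circles WT and triangles KO, coloured by sub-cluster. Some goblet-led cells reach the greatest depths and goblet levels, but their median goblet level was 594 CPM in WT and 3890 CPM in KO, beside 1097 and 2293 CPM in the progenitor-like, 321 and 798 CPM in the L cell-like and 213 and 461 CPM in the enterochromaffin-like cells.

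The other 169 cells formed 3 sub-clusters. They were named by marker lists for each subtype: 23 WT and 40 KO cells progenitor-like (Neurog3), 26 WT and 36 KO cells enterochromaffin-like (Chgb, with Tph1), and 16 WT and 28 KO cells L cell-like (Pyy, Insl5, Gcg), the last also holding the Sst cells. With finer clustering, 9 sub-clusters were found, and without centring 6. In the uncentred clustering, 10 WT and 34 KO of the enterochromaffin-like cells formed one group, led by Fam19a1 and Tmem158. Another 16 WT cells and 1 KO cell joined 11 goblet-led WT cells in a group of 27 WT and 1 KO cells, led by Cartpt, Cpb2, Fabp3 and Wif1. Of the goblet-led KO cells, 21 fell in a further uncentred group with 10 WT and 18 KO progenitor-like cells.

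The targeted gene was sparse in cluster 5. Mettl14 had 16 UMIs in WT and 11 in KO, 12.6 and 9.64 CPM, a log2 ratio of KO over WT of -0.39 (-1.64 to 0.81). Without the 50 goblet-led cells of the uncentred clustering it had 8 and 10 UMIs, a ratio of 0.23 (-1.26 to 1.78). In the 169 cells, 6 of 65 WT and 7 of 104 KO cells held a Mettl14 UMI. Over clusters 0 to 4 it had 608 and 190 UMIs, 10.4 and 5.22 CPM, with a log2 ratio of -1.0 (-1.24 to -0.76). A difference of that size was not detectable in cluster 5 at this depth. A 3' tag outside the deleted part would not report the deletion. Mettl3, the catalytic partner, had 15 and 9 UMIs in cluster 5. Without the 50 goblet-led cells of the uncentred clustering it had 6 and 8 UMIs (0.33, -1.39 to 2.13).

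Genes with at least 20 UMIs over both libraries in cluster 5 were counted as measured, and as higher or lower when the ratio reached 1.5-fold with an interval excluding equal levels. Of 9372 measured genes, 1195 (12.8%) were higher and 928 (9.9%) lower in KO. In the 169 cells, 698 of 6387 (10.9%) were higher and 473 (7.41%) lower. The same rule called 17.3% of 14216 genes higher and 16% lower over clusters 0 to 4, where the counts are far deeper. The median log2 ratio of all measured genes was 0.01, and 0.05 in the 169 cells.

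Hormone genes were lower in KO almost throughout. Of 14 measured genes of hormones and transmitter synthesis, 10 were lower and 0 higher over all cells (median log2 ratio -2.03), and in the 169 cells 12 of 13 were lower and 0 higher (median -2.42). The remaining one in those cells was Ddc, the decarboxylase that completes serotonin synthesis, at 749 CPM in WT and 765 CPM in KO (0.03, -0.19 to 0.25). For comparison with these lists and those below, 12.8% of all measured genes were higher and 9.9% lower over all cells. In the 169 cells the shares were 10.9% and 7.41%. Most hormone transcripts were carried by few cells, so the cells behind each sum are given beside it. By cell kind, 7 of 15 enterochromaffin markers were lower and 2 higher over all cells (median -0.79), and 7 of 14 lower and 1 higher in the 169 cells (median -0.56). Of the L cell markers 6 of 14 were lower and 3 higher over all cells (median -0.30), and 7 of 12 lower and 0 higher in the 169 cells (median -0.95), while among cells with at most 10% mitochondrial UMIs the median was 0.59. All 4 measured D cell markers were lower in both sets (medians -1.76 and -2.17).

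Among the L cell hormones, Insl5 was furthest apart. It had 2739 UMIs in 15 WT cells and 558 UMIs in 25 KO cells, which is 2161 and 489 CPM, a log2 ratio of -2.14 (-2.28 to -2.01), and -2.53 (-2.68 to -2.38) in the 169 cells. In those cells 8 WT and 10 KO cells held at least 10 Insl5 UMIs, with a median of 137.5 UMIs (maximum 849) in WT and 33 (maximum 86) in KO. About as many cells thus carried the transcript in each library, at lower levels in KO. Pyy, the most abundant hormone transcript of the cluster, had 17159 UMIs in WT and 11480 in KO, 13540 and 10064 CPM, a ratio of -0.43 (-0.46 to -0.39) that did not reach 1.5-fold. Without the goblet-led cells it was -0.71 (-0.75 to -0.67), and the cells with at least 10 UMIs, 16 in WT and 23 in KO, held medians of 558.5 and 162 UMIs. Gcg had 2315 UMIs in 11 WT cells and 890 UMIs in 9 KO cells, with ratios of -1.23 (-1.34 to -1.12) and, in the 169 cells, -1.67 (-1.81 to -1.53). Of the Gcg UMIs, 65.2% in WT and 87.8% in KO lay in 3 cells, and among cells with at most 10% mitochondrial UMIs the ratio was 0.73, so the Gcg value rests on few cells. Of the cells with at least 10 Insl5 UMIs, 5 of 8 in WT and 1 of 10 in KO also held at least 10 Gcg UMIs. Sst, the D cell hormone, had 5087 UMIs in 9 WT cells and 1220 UMIs in 4 KO cells (-1.91, -2.0 to -1.82), and 53% of the KO UMIs lay in a single cell. Without the richest cell of each library the ratio was -2.74 for Sst and -1.85 for Insl5.

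The serotonin and secretin genes differed more strongly. Tph1, the rate-limiting enzyme of serotonin synthesis outside the brain, had 732 UMIs in 41 WT cells and 100 UMIs in 23 KO cells, 578 and 87.7 CPM, with a log2 ratio of -2.72 (-3.04 to -2.42), and -2.98 (-3.40 to -2.58) in the 169 cells. At least 10 Tph1 UMIs were found in 15 of 65 WT cells (23.1%) and 2 of 104 KO cells (1.92%). Sct, which encodes secretin, had 1149 UMIs in 59 WT cells and 135 UMIs in 19 KO cells, 907 and 118 CPM, with ratios of -2.94 (-3.21 to -2.68) and -3.26 (-3.56 to -2.97). A single KO cell held 60.0% of the KO Sct UMIs and a single WT cell 34.3% of the WT UMIs, and without the richest cell of each library the ratio was -3.65. Of the cells with at least 10 Tph1 UMIs, 11 of 15 in WT and 0 of 2 in KO also held at least 10 Sct UMIs. No cell of cluster 5 held 10 UMIs of both Tph1 and Pyy. In clusters 0 to 4, 15.9% of WT and 6.17% of KO cells had a Sct UMI, with a median of 1 UMI among them, and 7 WT cells and 1 KO cell held at least 10. Thinned to 3000 UMIs, 41.3% of WT and 8.82% of KO cells of the 169-cell set kept a Sct UMI, against 2.82% and 2.92% in cluster 4. Iapp, the amyloid peptide known from pancreatic islets, was also lower (489 and 61 UMIs, -2.85), as was Tac1, the substance P precursor of enterochromaffin cells (189 and 32 UMIs, -2.41). Nts, Ppy and Cartpt had 422, 157 and 116 UMIs in 2, 2 and 7 WT cells and 0 UMIs in KO. Nts was thus at least 127-fold lower in KO, but 98.6% of its UMIs came from 1 WT cell.

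**Figure D2:**
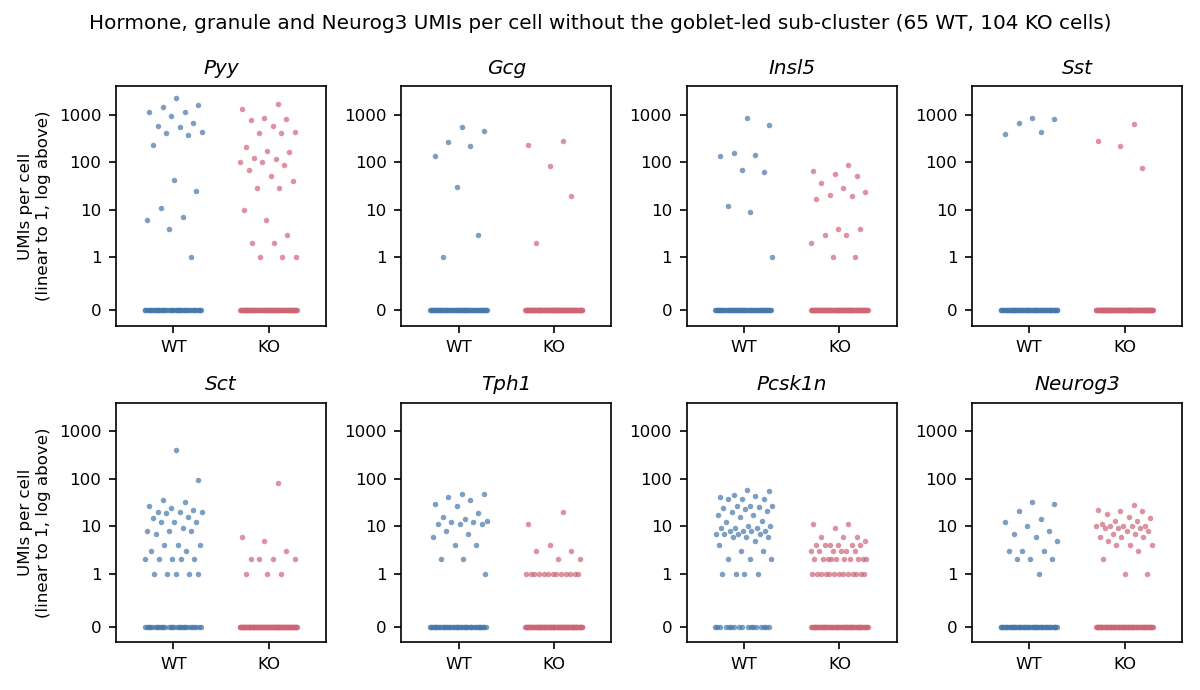
UMIs per cell of 8 genes (linear to 1, log above) in the 169 cells without the goblet-led sub-cluster, 65 WT in blue and 104 KO in red, 1 point per cell. The KO cells with Insl5, Tph1, Sct or Pcsk1n mostly sit lower than the WT cells, while the cells with Neurog3 overlap in level.

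Granule genes split into a few that were far lower in KO and a larger number near equal. Of 21 measured genes of granule proteins and prohormone processing, 7 were lower and 2 higher over all cells (median -0.26), and 7 of 20 were lower and 0 higher in the 169 cells (median -0.39). Shares over all measured genes were 9.9% lower and 12.8% higher, and 7.41% and 10.9% in the 169 cells. Pcsk1n encodes proSAAS, a granule peptide that inhibits prohormone convertase 1. It had 1256 UMIs in 82 WT cells and 171 UMIs in 56 KO cells, 991 and 150 CPM, with a log2 ratio of -2.72 (-2.96 to -2.49), and -2.84 (-3.12 to -2.57) in the 169 cells. The 3 richest cells accounted for 13.3% of its UMIs in WT and 18.1% in KO. However, 735 of its 1256 WT UMIs lay in the uncentred group of 27 WT cells and 1 KO cell. In the 169 cells 23 WT cells and 2 KO cells held at least 10 Pcsk1n UMIs. Resp18, a granule protein related to the islet autoantigen family, had 284 UMIs in WT and 35 in KO, with ratios of -2.87 (-3.42 to -2.36) and -3.40 (-4.06 to -2.80).

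The share of cells with a transcript also differed at equal depth. Of the 63 WT and 102 KO cells deep enough to be thinned to 3000 UMIs in this set (2 were left out in each library), 65.1% of WT and 33.3% of KO cells kept a Pcsk1n UMI, against 73.8% and 40.4% before thinning. For Resp18 the thinned shares were 38.1% and 9.8%. In cluster 4 the thinned share of cells with Pcsk1n or Resp18 was 0 in both libraries. Several other granule genes did not reach 1.5-fold over all cells: Chgb had 6739 and 5075 UMIs with a ratio of -0.26 (-0.31 to -0.20), and Scg5, Pcsk1 and Cpe lay at 0.02, 0.03 and -0.24. Chga, a granin like Chgb, was lower, with 2453 and 1280 UMIs and a ratio of -0.79 (-0.89 to -0.69). Of its WT UMIs, 1441 lay in the uncentred group of 27 WT cells and 1 KO cell. In the uncentred group of 10 WT and 34 KO cells it was near equal, at 0.12 (-0.10 to 0.33). Slc18a1, the vesicular transporter that loads serotonin, was at -1.57 (-2.01 to -1.14), Gch1, which makes the cofactor of Tph1, at -1.02 (-1.46 to -0.61), and Qpct, which caps peptides with pyroglutamate, at -1.72 (-2.51 to -0.99).

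**Figure D3:**
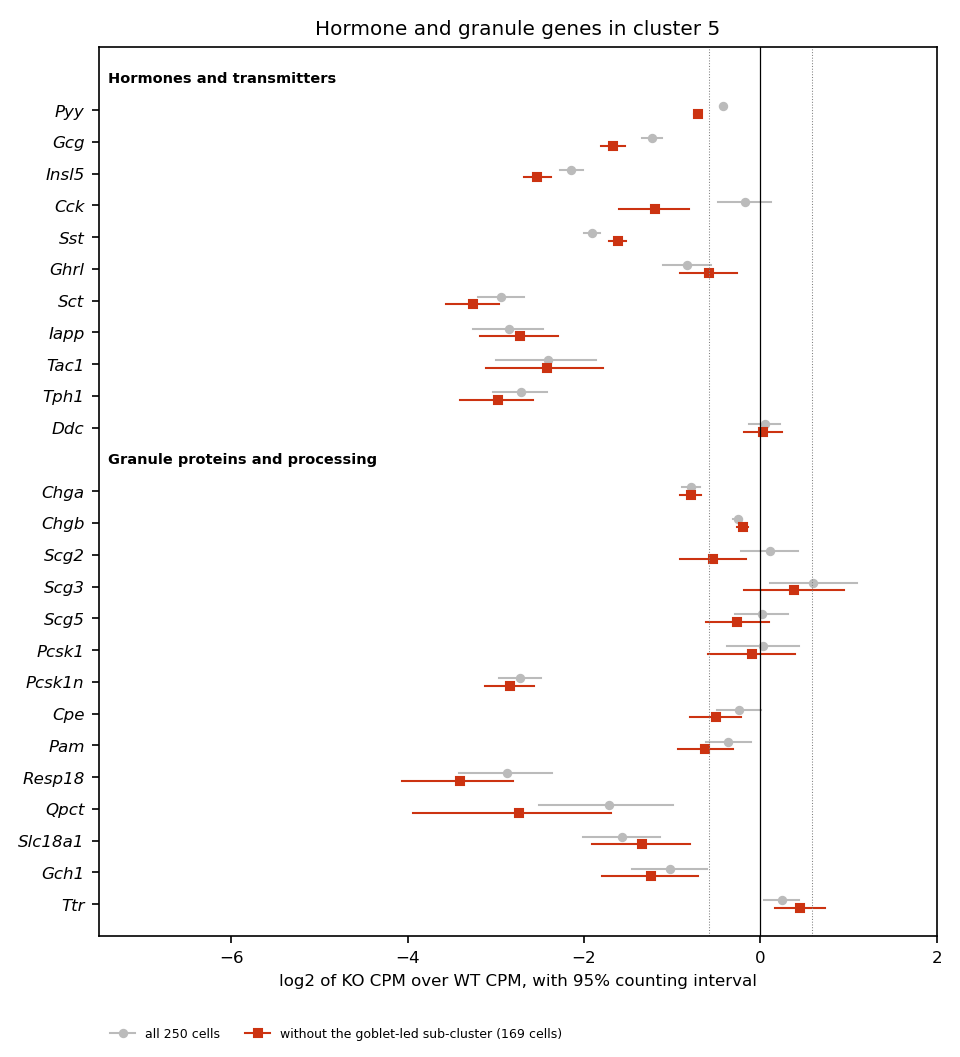
Log2 ratio of KO over WT CPM for hormone, transmitter and granule genes, with 95% counting intervals, over all 250 cells in grey and over the 169 cells in red; dotted lines mark 1.5-fold. Sct, Iapp, Tac1, Tph1, Pcsk1n and Resp18 lie below -2 in both sets, while Ddc, Chgb and Pcsk1 lie near 0.

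For Gcg, Sct, Pcsk1n and Resp18, all lower in KO, the 250 bases upstream of the start are shown. They were searched for CAGATG, a form of E-box that Neurod1 is known to bind. A role of Neurod1 in these differences was not tested. The sequences are RefSeq's, of build GRCm38.p6, on the strand of the gene and 5' to 3'. Capitals mark CAGATG or its reverse complement CATCTG. Of 32851 RefSeq windows of this length, 4745 (14.4%) held either.
Gcg, chr2:62483654-62483903, minus strand: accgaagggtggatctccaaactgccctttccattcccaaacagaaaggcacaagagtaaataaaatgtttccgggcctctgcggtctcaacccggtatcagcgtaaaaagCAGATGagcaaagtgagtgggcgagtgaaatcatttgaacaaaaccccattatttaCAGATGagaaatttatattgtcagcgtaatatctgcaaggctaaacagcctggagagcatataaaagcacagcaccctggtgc
Sct, chr7:141279134-141279383, minus strand: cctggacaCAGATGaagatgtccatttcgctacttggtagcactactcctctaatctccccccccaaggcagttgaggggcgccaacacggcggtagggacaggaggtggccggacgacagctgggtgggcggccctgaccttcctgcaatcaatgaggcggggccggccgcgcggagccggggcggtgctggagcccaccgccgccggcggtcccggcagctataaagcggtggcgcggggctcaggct
Pcsk1n, chrX:7919572-7919821, plus strand: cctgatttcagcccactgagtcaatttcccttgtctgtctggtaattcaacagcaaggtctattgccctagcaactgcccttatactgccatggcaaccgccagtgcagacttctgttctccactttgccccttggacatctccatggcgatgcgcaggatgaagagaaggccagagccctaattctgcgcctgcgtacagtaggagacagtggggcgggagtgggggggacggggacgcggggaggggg
Resp18, chr1:75278416-75278665, minus strand: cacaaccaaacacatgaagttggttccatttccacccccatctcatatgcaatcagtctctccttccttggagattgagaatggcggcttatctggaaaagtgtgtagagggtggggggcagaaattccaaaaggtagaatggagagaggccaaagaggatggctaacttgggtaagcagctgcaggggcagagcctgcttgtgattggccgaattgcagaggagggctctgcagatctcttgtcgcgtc
Gcg held 2 matches, 139 and 83 bases before the start, and Sct held 1, 242 bases before it. The windows of Pcsk1n and Resp18 held none. Of the other windows searched, 1 of the 2 of Insl5 held a match, 178 bases before its start, and those of Tph1, Pyy, Chga, Chgb, Neurog3 and Neurod1 held none. A match is a description of the letters and no evidence of binding. By the GENCODE annotation of GRCm38 (vM21), Pcsk1n lies on chromosome X from 7919822 to 7924410, Resp18 on chromosome 1 from 75272199 to 75278415, Sct on chromosome 7 from 141278330 to 141279133, and Gcg on chromosome 2 from 62474530 to 62483650.

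Regulators of early enteroendocrine differentiation included genes that were higher in KO, and other lineage factors were lower. Of 32 measured enteroendocrine transcription factors, 10 were higher and 10 lower over all cells (median 0.07), and 3 of 30 were higher and 12 lower in the 169 cells (median -0.21). All measured genes were higher in 12.8% and lower in 9.9% of cases over all cells, and in 10.9% and 7.41% in the 169 cells. The count of higher factors in the 169 cells was thus near the share of all measured genes. Of 14 progenitor markers, 7 were higher and 2 lower (median 0.78), and without the goblet-led cells 4 were higher and 4 lower (median 0.23), so the balance of that list depends on those cells.

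Insm1, a zinc-finger factor needed for endocrine differentiation, had 439 UMIs in 93 WT cells and 912 UMIs in 146 KO cells, 346 and 800 CPM, with a log2 ratio of 1.21 (1.04 to 1.37), and 0.89 (0.69 to 1.09) in the 169 cells. Neurod1, the factor downstream of Neurog3, had 384 and 718 UMIs, 303 and 629 CPM, with ratios of 1.05 (0.87 to 1.24) and 0.78 (0.56 to 1.01). Nearly every cell of the cluster carried Insm1 in both libraries, with higher levels in KO. Neurog3, which commits progenitors to the lineage, had 174 UMIs in 20 WT cells and 541 UMIs in 59 KO cells, 137 and 474 CPM, a ratio of 1.79 (1.54 to 2.04). Without the goblet-led cells it was 0.76 (0.49 to 1.04), since 39.6% of the KO Neurog3 UMIs but 7.5% of the WT UMIs lay in those cells. Leaving out the 50 goblet-led cells of the uncentred clustering instead gave 1.48 (1.22 to 1.75). In the 169 cells at least 10 Neurog3 UMIs were found in 6 WT cells (9.23%) and 15 KO cells (14.4%), with medians of 17.5 and 13 UMIs, so the cells with the transcript overlapped in level.

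Sox4, a progenitor factor, depended on the choice of cells, with a ratio of 0.95 over all cells, 0.29 in the 169 cells and -0.12 in cells with at least 3 of the 5 markers. Tubb3, a neuronal tubulin of young endocrine cells, was at 2.44 (1.74 to 3.22) and 1.55 (0.81 to 2.34), and Hes6, an inhibitor of Hes1, at 0.96 and 0.79. The factors that were lower in both sets included Pax6, at -1.03 (-1.72 to -0.38) and -1.60, Prox1, at -0.83 and -1.26, Peg3, at -1.23 (-1.59 to -0.88) and -1.5, and Cdx2, the intestinal identity factor, at -1.09 (-1.52 to -0.67) and -1.51. Mlxipl, the glucose-responsive factor ChREBP, had 52 and 14 UMIs with a ratio of -1.74. Fev, the serotonergic factor of enterochromaffin cells, was near equal, with 242 and 206 UMIs and a ratio of -0.08 (-0.36 to 0.19).

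**Figure D4:**
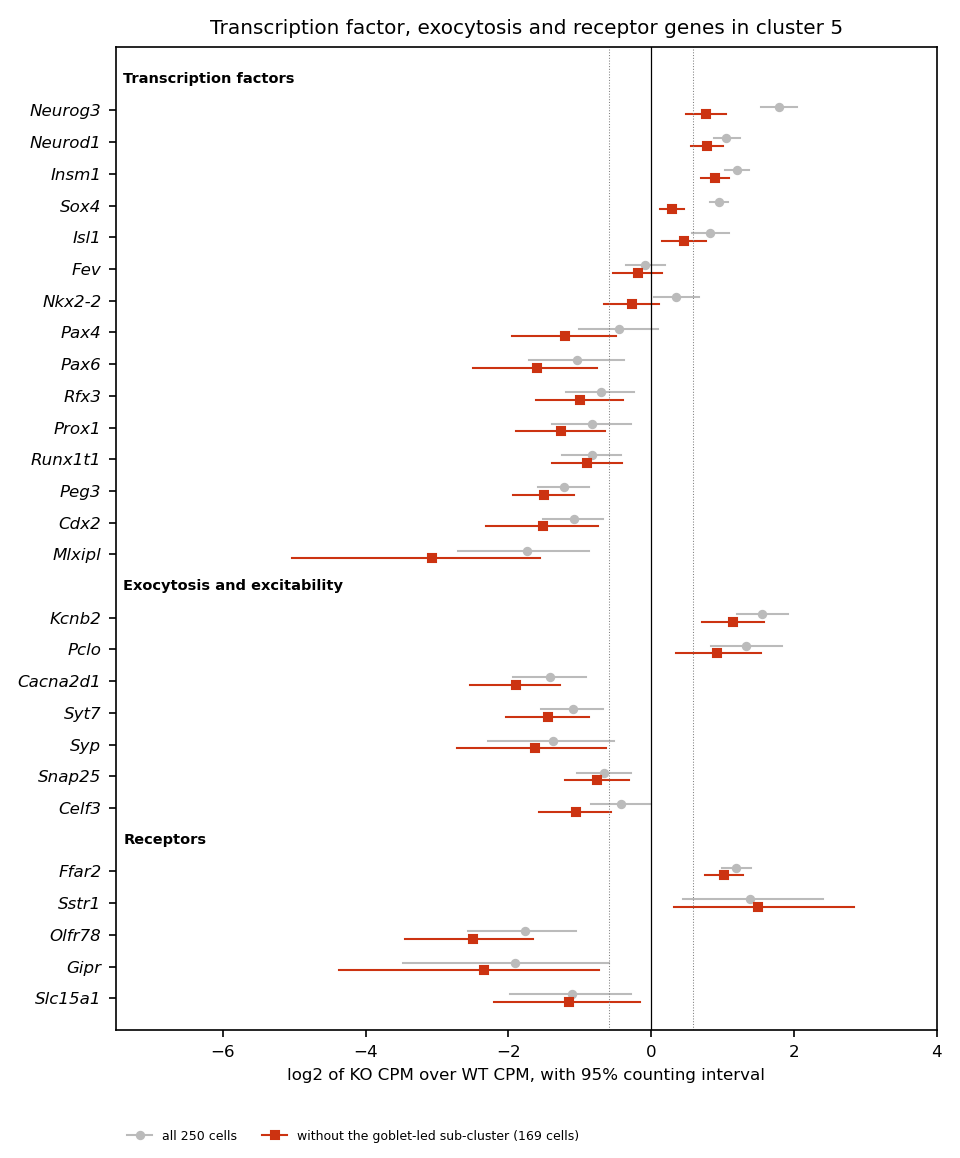
Log2 ratio of KO over WT CPM for transcription factors, exocytosis and excitability genes and receptors, with 95% counting intervals, over all 250 cells in grey and over the 169 cells in red; dotted lines mark 1.5-fold. Neurog3 moves from 1.79 to 0.76 when the goblet-led cells are left out, while Insm1, Neurod1 and Ffar2 stay above 1.5-fold and Peg3, Cdx2 and Syt7 below it.

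Of 31 measured genes of regulated exocytosis and excitability, 4 were higher and 5 lower over all cells (median 0.15), shares near the 12.8% and 9.9% of all measured genes. In the 169 cells 2 of 27 were higher and 9 lower (median -0.30), where 10.9% and 7.41% of all measured genes were. Kcnb2, a voltage-gated potassium channel, was higher, with 95 and 251 UMIs and ratios of 1.55 (1.21 to 1.91) and 1.14 (0.72 to 1.58), as was Pclo, a presynaptic scaffold, at 1.33 and 0.93. Syt7, a calcium sensor of granule fusion, was lower, with 155 and 65 UMIs and ratios of -1.10 (-1.54 to -0.68) and -1.44, and Cacna2d1, a calcium channel subunit, was at -1.41 (-1.93 to -0.91) and -1.89. Snap25, a SNARE protein of granule fusion, was at -0.66 over all cells and -0.76 in the 169 cells, but at 0.21 among cells with at most 10% mitochondrial UMIs.

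Receptors for nutrients, microbial products and hormones also differed. Of 16 measured, 3 were higher and 7 lower (median -0.58), and of 13 in the 169 cells 2 were higher and 5 lower (median -0.61). Among all measured genes 12.8% were higher and 9.9% lower, and 10.9% and 7.41% in the 169 cells. Ffar2, a receptor for short-chain fatty acids made by gut bacteria, had 315 UMIs in 80 WT cells and 649 UMIs in 142 KO cells, 249 and 569 CPM, with ratios of 1.19 (1.0 to 1.39) and 1.02 (0.75 to 1.29). Over clusters 0 to 4 it was at 89.1 and 144 CPM, a ratio of 0.70 (0.64 to 0.75). At 3000 UMIs per cell, 65.1% of WT and 87.3% of KO cells of the 169-cell set kept an Ffar2 UMI, against 5.01% and 10.4% in colonocyte-like cluster 4. Sstr1, a somatostatin receptor, was at 1.39 and 1.5 on 14 and 33 UMIs. The lower ones included Olfr78, an olfactory-type receptor for short-chain fatty acids found in colonic L cells, with 76 UMIs in 11 WT cells and 20 UMIs in 8 KO cells (-1.77, -2.56 to -1.05), and Gipr, the receptor of the hormone GIP (25 and 6 UMIs, -1.91). Ffar4, a long-chain fatty acid receptor, was at 2.31 over all cells, but 94.8% of its KO UMIs lay in the goblet-led cells, and the other cells held 4 WT and 3 KO UMIs.

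The libraries were then compared within each sub-cluster. In the enterochromaffin-like cells 268 of 2593 measured genes were higher (10.3%) and 7.6% lower, in the L cell-like cells 12.8% and 5.93% of 2547, and in the progenitor-like cells 8.05% and 6.85% of 2819. In the goblet-led cells 11.4% of 7685 genes were higher and 9.51% lower. Pcsk1n was lower in each, with ratios of -2.81 (-3.17 to -2.47) in enterochromaffin-like cells (492 and 81 UMIs), -2.99 (-3.50 to -2.52) in L cell-like cells (265 and 42 UMIs) and -1.66 (-3.30 to -0.23) in progenitor-like cells (16 and 6 UMIs). Resp18 was lower in the first pair, at -2.95 (-4.08 to -1.98) and -3.68 (-4.55 to -2.92), and had 1 and 0 UMIs in progenitor-like cells. Insm1 was higher in all 3, at 0.85 (0.49 to 1.23), 1.20 (0.75 to 1.67) and 0.81 (0.52 to 1.09), and so was Ffar2, at 1.18, 1.17 and 0.85. Neurod1 was higher in enterochromaffin-like (1.02, 0.64 to 1.42) and L cell-like cells (1.69, 1.15 to 2.27), and at 0.21 (-0.12 to 0.54) in progenitor-like cells. Pcsk1n, Insm1 and Ffar2 thus differed in the same direction in sub-clusters with different hormones.

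Other genes had values that varied between the sub-clusters, a difference that was not tested. Tph1 in the enterochromaffin-like cells had 382 UMIs in 23 WT cells and 58 UMIs in 20 KO cells, a ratio of -2.93 (-3.35 to -2.53), beside Tac1 at -2.47, Slc18a1 at -1.65 and Sct, with 334 and 5 UMIs, at -6.27 (-7.90 to -5.03). Ddc and Fev in the same cells were at 0.12 and 0.28. Within the 10 WT and 34 KO enterochromaffin-like cells that stayed together in the uncentred clustering, Tph1 was at 568 and 336 CPM, a ratio of -0.76 (-1.43 to -0.07), Pcsk1n at -1.26 (-1.75 to -0.77) and Slc18a1 at -0.13 (-1.13 to 0.94). Sct had 1 and 4 UMIs in those cells, Resp18 10 and 10 UMIs (-1.24, -2.66 to 0.18), and Tac1 94 and 23 UMIs (-3.27, -3.99 to -2.60). The group of 27 WT and 1 KO cells, which includes goblet-led cells, held 635 of the 732 WT Tph1 UMIs of cluster 5 and 553 of the 1149 WT Sct UMIs. It also held 735 of the 1256 WT Pcsk1n UMIs and 1441 of the 2453 WT Chga UMIs. The size of the Tph1, Sct, Pcsk1n and Chga differences thus depended on whether the cells of that group, nearly all WT, were included. Chgb was near equal in enterochromaffin-like cells (-0.06, -0.13 to 0.00), higher in L cell-like cells (76 and 228 UMIs, 1.25, 0.87 to 1.65) and lower in progenitor-like cells, where 361 UMIs lay in 9 WT cells and 14 in 3 KO cells (-4.93, -5.81 to -4.16). In L cell-like cells Insl5 was at -2.60 (-2.75 to -2.45), Gcg at -1.74, on 7 WT and 5 KO cells, Sct at -2.65 and Pyy at -0.79. A single WT cell held 394 of those Sct UMIs and a single KO cell 81, most of them in each library, so that Sct value rests on few cells. Neurog3 in the progenitor-like cells had 157 UMIs in 15 WT cells and 326 UMIs in 32 KO cells, 893 and 1569 CPM, a ratio of 0.81 (0.53 to 1.10), with Tubb3 at 1.70 and Hes6 at 0.74.

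**Figure D5:**
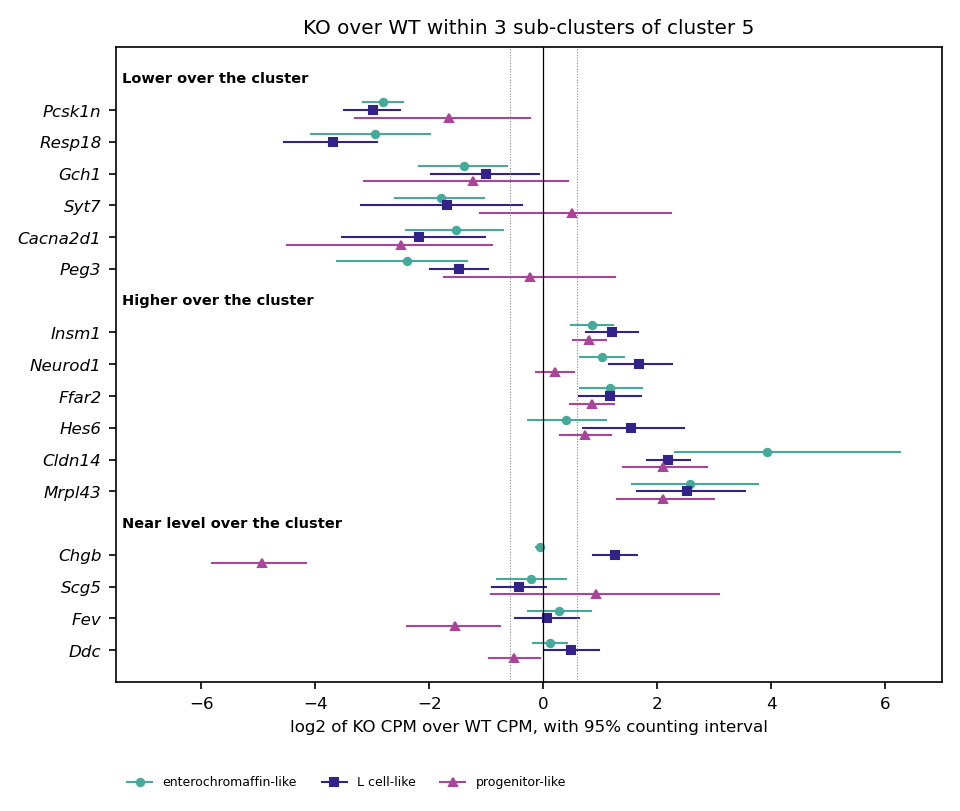
Log2 ratio of KO over WT CPM with 95% counting intervals within the enterochromaffin-like (26 WT, 36 KO cells), L cell-like (16 and 28) and progenitor-like (23 and 40) sub-clusters; dotted lines mark 1.5-fold and a gene with 0 UMIs in a library has no point. Pcsk1n and Cacna2d1 lie below and Insm1 and Ffar2 above 0 in each, while Chgb runs from -4.93 to 1.25.

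Cells of both sexes were present in each library. In the 169 cells 21 WT and 51 KO cells held at least 3 Xist UMIs and no Y-linked UMI (Xist cells). Another 31 WT and 33 KO cells held any Y-linked UMI and no Xist UMI (Y-linked cells), a looser rule. The leading differences were seen within both kinds of cell. Pcsk1n was at -3.02 (-3.46 to -2.61) in Xist cells and -2.57 (-3.05 to -2.13) in Y-linked cells, Resp18 at -3.31 and -3.08, Insl5 at -2.47 and -3.35, Insm1 at 0.78 and 0.99, and Ffar2 at 1.28 (0.82 to 1.76) and 0.65 (0.24 to 1.05). Neurod1 was at 0.85 in Xist cells and 0.31 (-0.05 to 0.68) in Y-linked cells.

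Outside the endocrine lists, genes among those furthest above equal in KO in the 169 cells were Cldn14, a tight junction claudin, with 93 and 557 UMIs and a ratio of 2.32 (2.0 to 2.66), Spink1, a trypsin inhibitor (20 and 145 UMIs, 2.60), Nxt1, an mRNA export cofactor (5 and 55 UMIs, 3.20), Mrpl43, a mitochondrial ribosomal protein (36 and 225 UMIs, 2.38), and Ifitm3, an interferon-induced membrane protein (17 and 122 UMIs, 2.58). Cldn14 was higher in all 3 sub-clusters, by 3.94, 2.19 and 2.11 in the order enterochromaffin-like, L cell-like and progenitor-like. Nxt1 and Mrpl43 were higher over clusters 0 to 4 as well, by 2.09 and 2.35. Among those furthest below were Wif1, a secreted Wnt inhibitor, with 92 UMIs in 17 WT cells and 1 UMI in KO, Dlk1, a Notch-family ligand (71 and 1 UMIs), the noncoding Meg3 (90 and 2), the small heat shock protein Hspb1 (34 and 0), Tbx3, a T-box factor (42 and 1), and Cpb2, a carboxypeptidase (24 and 0). In the uncentred clustering, the group of 27 WT cells and 1 KO cell held 133 of the 142 WT Wif1 UMIs of cluster 5. It held 77 of the 89 WT Tbx3 UMIs and 52 WT Cpb2 UMIs, and Hspb1 and Dlk1 were among its leading genes. In the group of 10 WT and 34 KO cells, Wif1 and Cpb2 had 0 UMIs in both libraries, and Tbx3 had 0 and 1. The Wif1, Tbx3 and Cpb2 values thus depended on a group of cells that were nearly all WT.

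The counts of the other gene lists stand beside 12.8% of all measured genes higher and 9.9% lower over all cells. These shares were 10.9% and 7.41% in the 169 cells, and 17.3% and 16% over clusters 0 to 4. Among the other gene lists, immediate early genes were lower in KO in cluster 5 and outside it. Of 28 measured, 17 were lower and 1 higher (median -1.04), of 17 in the 169 cells 12 were lower and 1 higher (median -1.47), and of 32 over clusters 0 to 4 22 were lower and 2 higher (median -1.07). Fos, a transcription factor induced by stimulation, had 607 and 106 UMIs in cluster 5, a ratio of -2.37 (-2.68 to -2.07), and Dusp1, a MAP kinase phosphatase, had 31 and 2 UMIs in the 169 cells. Of 21 glycolysis and hypoxia genes 7 were lower and 0 higher over all cells (median -0.26), and of 18 in the 169 cells 8 were lower and 0 higher (median -0.62). In enterochromaffin-like cells 8 of 13 were lower (median -1.18), and in progenitor-like cells 1 of 10 was lower and 2 higher (median -0.27). Those lower in the 169 cells included Ldha, lactate dehydrogenase (160 and 69 UMIs, -1.47), and Vegfa, a hypoxia-responsive growth factor (56 and 11 UMIs, -2.61). The p53 targets had 16 measured members in those cells, 4 of them higher and 1 lower (median 0.36), with Cdkn1a, the p21 cell cycle inhibitor, at 123 and 264 UMIs (0.84, 0.53 to 1.16), Phlda3 at 1 and 19 UMIs, and Gadd45a lower (143 and 77 UMIs, -1.15). Ribosomal protein genes stayed near equal, with 1 of 82 higher and 0 lower (median 0.06). The MHC class II genes, 4 of 4 measured higher over all cells (median 2.54), were not measured in the 169 cells. Over all cells 5 of 8 T cell, B cell and myeloid markers were higher too (median 1.15), and the finer clustering held a group of 3 WT and 9 KO cells led by C1qc, Fcer1g and Tyrobp; their part in the MHC class II values was not tested. The S phase (14 of 26 lower) and G2 and M phase genes (19 of 28 lower) kept only 5 and 3 measured members in the 169 cells.

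Some ratios differed between cluster 5 and the other epithelial clusters. Of 9224 genes with enough UMIs on both sides, 507 (5.5%) had a ratio at least 1.5-fold above and 510 (5.53%) at least 1.5-fold below that over clusters 0 to 4, with a counting interval that excludes 0. Without the goblet-led cells these were 436 (6.95%) and 409 (6.52%) of 6275. Opposite calls in cluster 5 and over clusters 0 to 4 were made for 40 genes (0.434%). Id3, an inhibitor of helix-loop-helix factors, was at -2.89 in the 169 cells and 0.75 over clusters 0 to 4. Neurog3 was at 0.76 in the 169 cells and 4.90 over clusters 0 to 4, where its level was only 0.137 CPM in WT and 4.10 CPM in KO. Meg3 was at -5.75 and 0.19, and Rbp4, a retinol carrier, at -3.45 and 2.08. In the opposite direction, Nt5dc2 was at 3.28 and -1.92.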

How the data were processed

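Single-cell RNA was counted in 1 Mettl14 WT and 1 Mettl14 KO library. The deposited tables hold raw UMI counts per gene and cell, made by the authors, and the authors' cell table gives each cell's cluster; the submitters' processing notes name bcl2fastq, Cell Ranger and mm10. The files hold 17829 genes. UMIs of cluster 5 were summed per library and divided by their total (CPM). Log2 KO over WT has an exact conditional binomial 95% interval and shares a Clopper-Pearson interval, both for counting error only, since PCR and cells are not replicates. A library with 0 UMIs was set to 3 counts for a bound. The ratio code recovered known folds on simulated data. Sub-clusters came from 1500 variable genes, 15 components, 15 neighbours and Leiden clustering at resolution 0.5, with genes centred per library. The text draws its genes from the 15 on each side by the interval bound nearest to equal, given 50 CPM or more on one side and UMIs in 10 cells of the higher library, from the endocrine lists, from up to 4 members of each other list, and from 8 on each side for the comparison with clusters 0 to 4; predicted and haemoglobin genes, Xist and Y-linked genes are not named as changed. Members and lists were chosen with earlier results of these data known. Python 3.11.15, numpy 2.4.6, scipy 1.17.1, pandas 2.3.3, scanpy 1.11.5, leidenalg 0.10.2 and matplotlib 3.10.9 were used. Of the barcodes, 2 occurred in both libraries, 0 of them in cluster 5 of both.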

Additional observations from a re-analysis of the deposited data

Results flagged for a closer look

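For 6 of the named genes the KO over WT ratio in cluster 5 lay on the opposite side of equal from that over clusters 0 to 4, past 1.5-fold on both sides. With 1 library per genotype the difference between the clusters was not tested. Svip, an inhibitor of protein degradation at the endoplasmic reticulum, was at 1.29 on the log2 scale in cluster 5 and -0.67 outside it, and Clps, which encodes colipase, at 0.88 and -3.17. Clps was 1 of the listed pancreatic enzyme genes. Of 16 measured over clusters 0 to 4, 15 were lower and 0 higher in KO (median -8.91), so the value outside the cluster was not particular to Clps. In cluster 5, 3 were measured and all 3 were higher (median 0.88). Without the goblet-led cells Clps was at 0.51 (-0.33 to 1.38), under 1.5-fold, and thinned to 3000 UMIs per cell it was at -0.28. The other 4 were lower in cluster 5 and higher outside it. Hspb1 was at -5.96 and 1.70, Dlk1 at -3.26 and 1.21, Id3 at -2.23 and 0.75, and Rbp4 at -1.62 and 2.08. Hspb1 and Dlk1 were among the leading genes of the uncentred group of 27 WT cells and 1 KO cell.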

How the results depend on the processing

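Of 1250 values recomputed for 70 genes and 12 lists under 13 planned settings and 3 added after seeing the data, 969 stayed within the counting interval (for a list median, within 1.5-fold). In all, 75 lay on the other side of 0 from the reported value. Those past 1.5-fold in the main comparison that changed sign numbered 7: Clps thinned to 3000 UMIs per cell (-0.28), Gcg (0.73), Snap25 (0.21) and Rfx3 (0.27) in cells with at most 10% mitochondrial UMIs, Sox4 in cells with at least 3 of the 5 markers (-0.12), Rbp4 in Xist cells (0.094) and Scg3 in Y-linked cells (-0.38). Smaller values that did so include Pyy in cells with at least 3 of the 5 markers (0.18), a choice that uses Pyy itself, and the L cell median in cells with at most 10% mitochondrial UMIs (0.59). The count of genes higher in KO, 1195, became 555 with thinning, 594 in Xist cells, 402 in Y-linked cells, 698 without the goblet-led sub-cluster and 420 without it and thinned. The count of genes lower in KO, 928, became 614 with at least 50 UMIs, 377 with thinning, 536 in cells with at most 10% mitochondrial UMIs, 502 in Xist cells, 256 in Y-linked cells, 473 without the goblet-led sub-cluster and 284 without it and thinned. These settings use fewer cells, UMIs or genes. The ratio of the cluster's shares, 1.76, was 1.21 for cells with at least 3 of the 5 markers, and the 4 sub-clusters became 9 at resolution 1. Genes whose ratio differed from clusters 0 to 4 numbered 545 with thinning, against 1017. Depth limits genes such as Mettl14, with 16 and 11 UMIs. No paired analysis was possible because each genotype has 1 library, and for the same reason no replicate could be left out.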

Other observations

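Neurog3 transcripts were also found outside cluster 5. In clusters 0 to 4, 4 WT cells held 8 UMIs (0.1% of 3994 cells) and 30 KO cells held 149 UMIs (0.864% of 3471 cells). The KO cells were spread over all 5 clusters, with 6, 5, 6, 9 and 4 cells in clusters 0, 1, 2, 3 and 4, and the WT cells lay in clusters 3 and 4, 2 in each. Of the KO cells, 2 in cluster 2, 1 in cluster 3 and 1 in cluster 4 held at least 10 UMIs.

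Markers of tuft cells, a chemosensory epithelial cell type, summed to 83.2 CPM in WT and 5.79 CPM in KO over the 169 cells without the goblet-led sub-cluster. Of the 36 WT UMIs, 28 lay in 1 cell with at least 3 of the 7 markers.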
